A study of Drosophila melanogaster with 9 samples.

Results

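The 3 HP1 paralogs of *Drosophila* that are expressed throughout the body were followed by their identifiers: CG8409 (HP1a), CG7041 (HP1b) and CG6990 (HP1c). They were 3 of 15168 genes in the deposited gene table, and their transcripts were 4 of 22353 in the transcript table, namely HP1a-RA, HP1a-RB, HP1b-RA and HP1c-RA. RNA came from S2 cells, a line of blood cell character derived from *Drosophila* embryos, 3 days after transfection with 1 µg of double-stranded RNA (dsRNA). The dsRNA matched GFP in the control group, HP1a in the HP1a RNAi group and Su(var)3-9 in the Su(var)3-9 RNAi group, with 3 libraries in each of the 3 groups. All 9 libraries came from the same line and the same transfection procedure, so the control cells also carried dsRNA. According to the methods, dsRNA templates were amplified from exons shared by the isoforms of a target.

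HP1 proteins carry a chromodomain, which binds methylated lysine 9 of histone H3, and a chromoshadow domain, through which they dimerise and recruit partners. HP1a is the main structural protein of pericentromeric heterochromatin and binds the mark laid down by the methyltransferase Su(var)3-9. HP1b is found in both heterochromatin and euchromatin, and HP1c mostly in euchromatin, where it works with the zinc finger proteins Woc and Row.

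In the BDGP6 annotation the HP1a gene lies on chromosome arm 2L and encodes 206 amino acids, HP1b lies on X and encodes 240, and HP1c lies on 3R and encodes 237. The 2 HP1a transcripts carry 1 common coding sequence over 4 coding exons and differ only outside it, so both encode the same protein. HP1b and HP1c each have 1 transcript in the deposited table, although the annotation gives 3 for HP1b, and the values of these transcripts equal those of the genes. On the opposite strand CG8419 overlaps HP1a and CG17141 overlaps HP1c. CG8419 lay between 0 and 0.13 TPM in the 9 libraries and CG17141 between 3.18 and 8.01 TPM. Whether the counting used the strand is not given in the sources used here, so for HP1c reads of the gene and of CG17141 cannot be told apart where they overlap.

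Levels were deposited as TPM (a transcript's length-corrected share of a library). Such values do not record how many reads a library held, so its depth cannot be read from them. The paper lists a datasheet of sequencing statistics, which was not used here. Protein-coding genes held 14.1 to 15.1% of TPM in 3 libraries (replicates 1 and 3 of the control, and replicate 3 of Su(var)3-9 RNAi) and 9.59 to 11.0% in the other 6. The median tested gene was therefore below the control on the log2 scale, by 0.27 in the HP1a RNAi group and by 0.23 in the Su(var)3-9 RNAi group. Some of the results below are also given after division by a size factor, which ranged from 0.778 to 1.29. The size factor is the median ratio of a library to the geometric mean over 8077 genes found in every library. Where no scaling is named, levels and fold changes are on the deposited scale, without this division. Of 8 blood cell markers, 7 averaged at least 1 TPM in the control and 6 in each of the other groups, with a summed level of 28.8 to 55.4 TPM per library. NimC1, a phagocytic receptor of blood cells, stayed at or below 0.21 TPM. Of 9 markers of germ line, follicle cells, neurons and muscle, 2 averaged at least 1 TPM in the control (bam and fs(1)Yb) and 1 in the other groups.

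The targeted genes were not lower in the libraries labelled for them. HP1a RNA was higher, not lower, in the HP1a RNAi group, and CG6476, the identifier used here for Su(var)3-9, which shares its locus with eIF2gamma, averaged 368 ± 101 TPM (SD, n = 3) in the group of that label against 32.4 ± 7.42 TPM for control cells. Both groups are therefore named by their labels throughout, as the HP1a-labelled and the Su(var)3-9-labelled libraries. The methods describe a check of each knockdown on the protein by immunoblot, which was not analysed here, so these RNA values say nothing about the protein. In these tables, reads from a transfected dsRNA and from the gene it matches cannot be told apart, and neither can more RNA per cell and more cells that hold it.

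HP1a was by far the most abundant of the 3 paralogs, followed by HP1c and then HP1b, and this order held in all 9 libraries. In the control HP1a stood at 91.46, 53.84 and 79.71 TPM, HP1c at 12.55, 9.79 and 17.10 TPM, and HP1b at 11.48, 5.83 and 9.80 TPM. All HP1a values of the control were above those of HP1c and HP1b, while the HP1c and HP1b ranges overlapped. Within each control library HP1a was 4.66 to 7.29 times HP1c and 7.97 to 9.23 times HP1b, and HP1c was 1.09 to 1.74 times HP1b. HP1a alone accounted for 77.2% ± 2.23 (SD, n = 3) of the 3 genes' TPM, HP1c for 13.7% ± 2.61 and HP1b for 9.18% ± 0.774. Against the median of 5.74 TPM over 6318 tested protein-coding genes, HP1a ranked at the 96.5th percentile of the control, HP1c at the 76.3rd and HP1b at the 64.9th, each as the mean of 3 libraries.

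**Figure D1:**
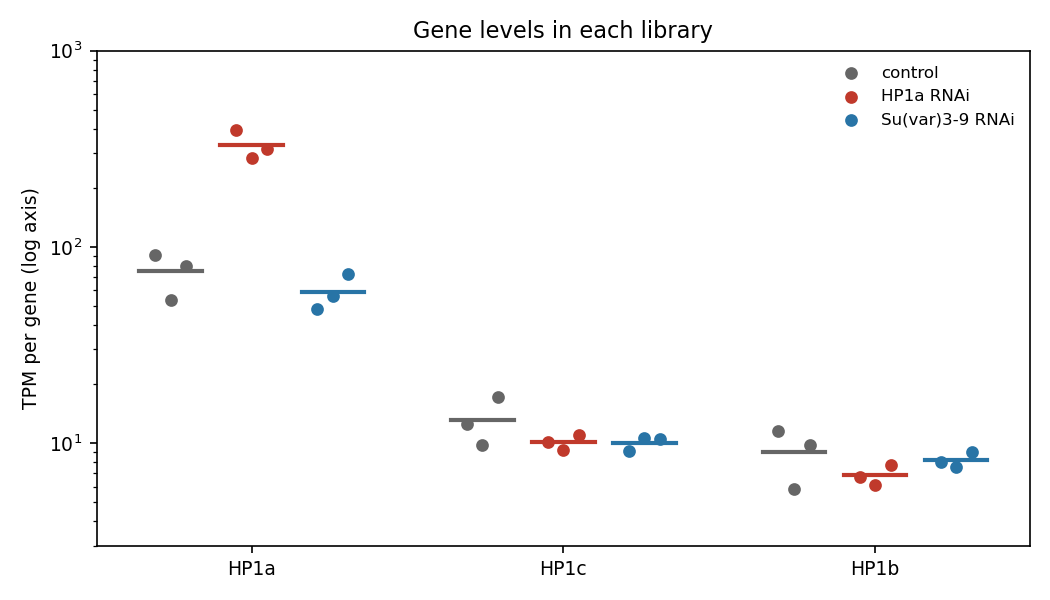
TPM of HP1a, HP1c and HP1b (log axis) in each of the 9 libraries, with dots for libraries and lines for group means. The 3 HP1a-labelled libraries lie between 285.16 and 393.30 TPM for HP1a, above all 6 others, while HP1b and HP1c stay between 5.83 and 17.10 TPM in every library.

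The first comparison asked how the HP1a gene and its paralogs differed between cells given HP1a dsRNA and control cells. HP1a stood at 393.30, 285.16 and 316.71 TPM in the HP1a-labelled libraries. All 3 were above the highest control library, and the groups did not overlap. The log2 fold change of HP1a, on log2(TPM + 1), was 2.15 (SE 0.28, 95% interval 1.54 to 2.76, limma adjusted p = 0.0019), a ratio of 4.44 in TPM + 1 (2.92 to 6.77). Relative to the median gene the difference was 2.42, and over size factors it was 2.51 (adjusted p = 0.0010 in limma). The sum of the 3 HP1 genes went from 97.2 ± 24.4 TPM (SD, n = 3) to 349 ± 56.0 TPM, of which HP1a held 95.1% ± 0.742.

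HP1b and HP1c did not pass the test in this comparison. HP1b stood at 6.72, 6.15 and 7.72 TPM in the HP1a-labelled libraries, all within the control range of 5.83 to 11.48 TPM. Its log2 fold change was -0.31 (SE 0.22, 95% interval -0.79 to 0.17, limma adjusted p = 0.348). HP1c stood at 10.17, 9.23 and 10.95 TPM against 9.79 to 17.10 TPM, with 1 library below the control range. Its log2 fold change was -0.32 (SE 0.21, 95% interval -0.78 to 0.14, limma adjusted p = 0.324). Both values lay close to the median gene, at -0.04 and -0.05 relative to it.

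Over size factors the difference of each changed sign and was near 0, at 0.01 for HP1b (95% interval -0.32 to 0.34) and 0.01 for HP1c (-0.29 to 0.31). As ratios of scaled TPM + 1 these intervals run from 0.801 to 1.26 for HP1b and from 0.820 to 1.24 for HP1c, and intervals for the RNA level itself are wider, since the added 1 draws a ratio of low values towards equality. Of the 3 HP1 genes 1 was called, where 4.34% of all tested genes were called (14 higher and 271 lower, and over size factors 12 higher and 35 lower). Without control replicate 2, whose median gene and HP1b and HP1c values are the lowest of the control, HP1b (-0.57, limma adjusted p = 0.026) and HP1c (-0.50, adjusted p = 0.046) passed on the deposited scale, as did 2767 of 6573 genes. HP1a missed the threshold when no filter on low values was applied (limma adjusted p = 0.051).

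The second comparison set the Su(var)3-9-labelled libraries against the control, and asked whether HP1 levels differed between these groups. HP1a stood at 48.31, 56.26 and 72.67 TPM, HP1c at 9.08, 10.64 and 10.46 TPM, and HP1b at 8.04, 7.54 and 8.98 TPM. Each gene overlapped its control range. The log2 fold changes were -0.33 for HP1a (SE 0.34, 95% interval -1.06 to 0.40), -0.33 for HP1c (SE 0.28, -0.92 to 0.27) and -0.09 for HP1b (SE 0.28, -0.69 to 0.52), with limma adjusted p-values of 0.786, 0.773 and 0.910. None of the 3 passed in limma, none had an unadjusted p under 0.05, and 0.167% of all tested genes were called.

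Over size factors the HP1a libraries of both groups drew together. HP1a then averaged 62.6 ± 7.69 (SD, n = 3) in the control and 61.3 ± 3.49 in the Su(var)3-9-labelled libraries, a log2 difference of -0.03 (95% interval -0.35 to 0.30). HP1b was 0.19 higher on the log2 scale (-0.23 to 0.61, limma adjusted p = 0.723), so its sign differed from that on the deposited scale.

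The third comparison set the 2 dsRNA targets against each other. HP1a was 2.48 higher on the log2 scale in the HP1a-labelled libraries than in those labelled Su(var)3-9 RNAi (SE 0.23, 95% interval 1.94 to 3.01, limma adjusted p = 0.0095), with no overlap between the groups. HP1b differed by -0.23 (SE 0.16, -0.59 to 0.13) and HP1c by 0.01 (SE 0.15, -0.34 to 0.36), both at a limma adjusted p of 1. Of the 3 genes 1 was called, where 0.0609% of all tested genes were. The HP1a call was lost, with the size of the difference between 2.35 and 2.50, without HP1a RNAi replicate 1, HP1a RNAi replicate 3 or Su(var)3-9 RNAi replicate 2 (limma adjusted p = 0.063, 0.088 and 0.089), and also without a filter on low values (0.154).

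**Figure D2:**
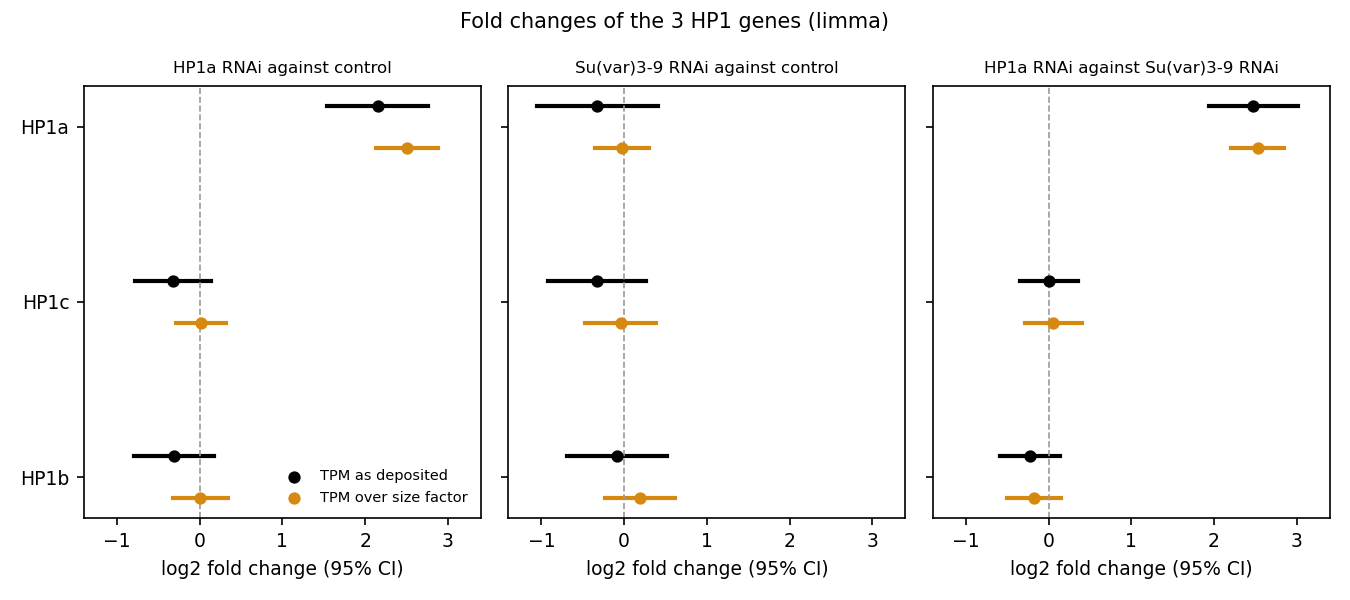
Log2 fold changes of the 3 HP1 genes in the 3 comparisons with 95% confidence intervals from limma (n = 3 libraries per group), on TPM as deposited (black) and over size factors (orange). HP1a lies at 2.15 and 2.48 where the HP1a-labelled libraries enter, and every interval of HP1b and HP1c includes 0.

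The transcripts of HP1a moved in opposite directions. The control libraries held 67.45, 39.70 and 34.81 TPM of HP1a-RA, and the HP1a-labelled ones 3.98, 3.55 and 5.29 TPM. Of HP1a-RB the control libraries held 24.01, 14.14 and 44.90 TPM, and the HP1a-labelled ones 389.31, 281.61 and 311.43 TPM. The groups did not overlap for either transcript, with HP1a-RA lower and HP1a-RB higher in all 3.

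HP1a-RA fell by 3.15 on the log2 scale (SE 0.27, 95% interval -3.78 to -2.52, limma adjusted p = 0.0044), a ratio of 0.113 in TPM + 1. HP1a-RB rose by 3.65 (SE 0.39, 2.75 to 4.55, limma adjusted p = 0.017), a ratio of 12.6 in TPM + 1. Of the 4 HP1 transcripts these 2 were called, where 0.325% of all tested transcripts were. Both calls were lost without a filter on low values (limma adjusted p = 0.10 and 0.119). The call of HP1a-RB was also lost without HP1a RNAi replicate 1, HP1a RNAi replicate 3 or control replicate 1 (limma adjusted p = 0.090, 0.112 and 0.097), with the difference between 3.52 and 3.68.

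In the Su(var)3-9-labelled libraries HP1a-RA stood at 37.10, 38.44 and 57.47 TPM and HP1a-RB at 11.21, 17.82 and 15.19 TPM. Both transcripts overlapped the control. HP1a-RA differed from the control by -0.06 (SE 0.34, limma adjusted p = 0.950) and HP1a-RB by -0.74 (SE 0.40, limma adjusted p = 0.803). Neither passed in limma nor had an unadjusted p under 0.05, and 0.0779% of transcripts were called in that comparison. Between the dsRNA targets, where 0.0649% of transcripts were called, HP1a-RA was lower by 3.09 (log2 difference -3.09, SE 0.22, limma adjusted p = 0.0039) and HP1a-RB higher by 4.39 (SE 0.22, limma adjusted p = 0.00044) in the HP1a-labelled libraries.

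**Figure D3:**
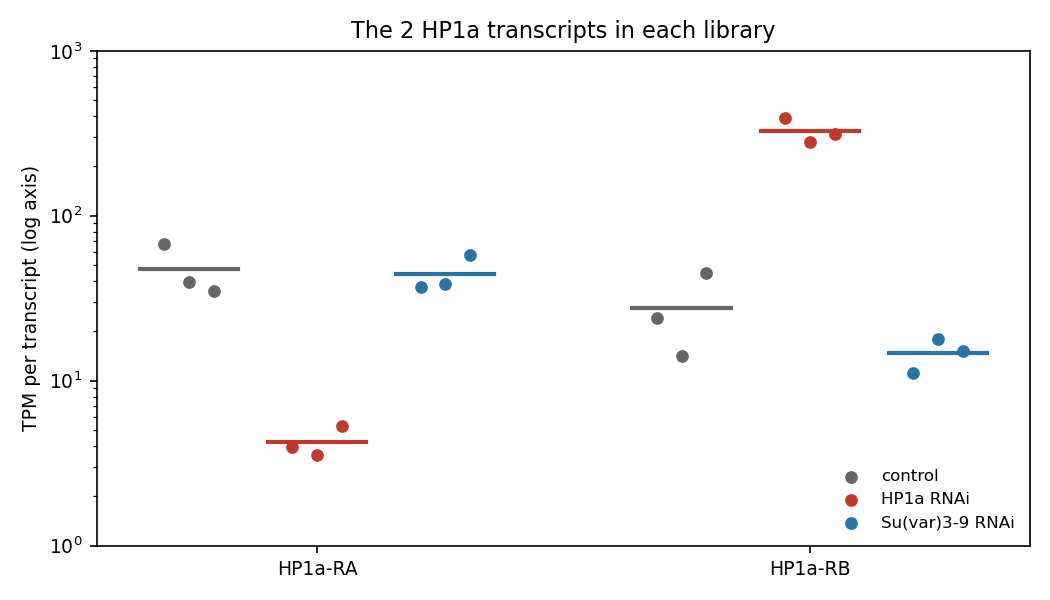
TPM of the 2 HP1a transcripts (log axis) in each library, with dots for libraries and lines for group means. HP1a-RA lies between 3.55 and 5.29 TPM and HP1a-RB between 281.61 and 389.31 TPM in the HP1a-labelled libraries, outside the ranges of the other 6 libraries in opposite directions.

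As a share of the gene's TPM, HP1a-RA made up 73.7%, 73.7% and 43.7% in the control, 76.8%, 68.3% and 79.1% in the Su(var)3-9-labelled libraries, and 1.01%, 1.24% and 1.67% in those labelled HP1a RNAi. HP1a-RA was thus the larger transcript in 5 of the 6 libraries without HP1a dsRNA, control replicate 3 being the exception, and the minor one in every library labelled HP1a RNAi. The 3 HP1a-labelled libraries differed from the 6 others by -67.9 percentage points (two-sided exact permutation test, p = 0.0238, the smallest this design allows, adjusted p = 0.0952 over 8 share tests, which are 4 comparisons seen from both transcripts). Against the control alone the difference was -62.4 points, with an exact permutation p = 0.1, the smallest that 3 against 3 libraries can give. The libraries labelled Su(var)3-9 RNAi differed from the control by 11.0 points (exact permutation p = 0.5), and by 0.996 points without control replicate 3.

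These shares and the levels of HP1a-RA and HP1a-RB above rest on how the authors' quantification divided reads between transcripts that share their coding exons. Whether reads from the HP1a dsRNA entered that division was not tested. The transcripts have deposited lengths of 989 (HP1a-RA) and 907 bases (HP1a-RB), where the BDGP6 annotation gives 992 and 1109. Among 681 genes with at least 2 transcripts, a mean of at least 10 TPM and a value above 0 in all libraries, the change of share in HP1a was the 1st in size between the HP1a-labelled libraries and the control, where the median gene changed by 2.81 points. It was the 94th in size between the Su(var)3-9-labelled libraries and the control, where the 1st was CG6476, at 84.8 points. In both comparisons with the control the gene matched by the dsRNA thus had the largest change of share.

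Set against its paralogs, HP1a-RA changed place. It was 3.55 to 6.81 times HP1b and 2.04 to 5.37 times HP1c in the control, and 4.61 to 6.40 and 3.61 to 5.49 times in the Su(var)3-9-labelled libraries. In the HP1a-labelled libraries it was 0.577 to 0.685 times HP1b and 0.385 to 0.483 times HP1c. HP1a-RA, a single transcript of its gene, was therefore below both paralogs in these 3 libraries and above both in the other 6. The HP1a gene as a whole was above both paralogs in every library. In the HP1a-labelled libraries the whole gene was 41.0 to 58.5 times HP1b and 28.9 to 38.7 times HP1c.

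Ratios within a library do not depend on its scaling. Those to HP1a carry the HP1a level as their denominator, so they restate its rise and do not test whether HP1b or HP1c changed. The log2 ratio of HP1b to HP1a was -2.99, -3.21 and -3.02 in the control and -5.87, -5.54 and -5.36 in the HP1a-labelled libraries, a difference of -2.51 with no overlap (exact permutation p = 0.1). The log2 ratio of HP1c to HP1a was -2.87, -2.46 and -2.22 in the control and -5.27, -4.95 and -4.85 in the HP1a-labelled libraries, also a difference of -2.51 (exact permutation p = 0.1). Against all 6 other libraries both ratios were lower, by 2.63 (log2 difference -2.63) and 2.50 (-2.50), each at the smallest exact permutation p of 0.0238 and an adjusted p of 0.143 over 12 ratio tests.

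The ratio of HP1c to HP1b, which leaves HP1a out, was 0.13, 0.75 and 0.80 on the log2 scale in the control and 0.60, 0.59 and 0.50 in the HP1a-labelled libraries, a difference of 0.0028 (exact permutation p = 1). In the Su(var)3-9-labelled libraries it averaged 0.30 ± 0.17 (SD, n = 3), which was 0.26 below the control (log2 difference -0.26, exact permutation p = 0.4) and 0.27 below the HP1a-labelled libraries (exact permutation p = 0.1, adjusted p = 0.171). In the last case the groups did not overlap. Control replicate 1, at 0.13, was the low one of the control.

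**Figure D4:**
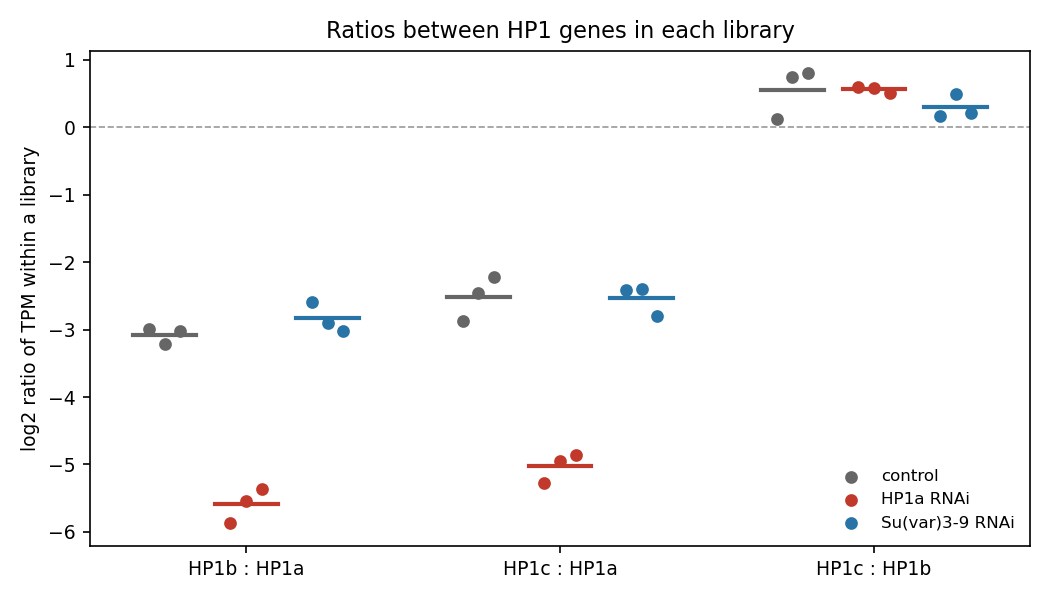
Log2 ratios of TPM between HP1 genes within each library, with dots for libraries, lines for group means and a dashed line at equal levels. HP1b to HP1a and HP1c to HP1a lie between -5.87 and -4.85 in the HP1a-labelled libraries and between -3.21 and -2.22 elsewhere, while HP1c to HP1b is above 0 in all 9 libraries.

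The highest HP1b values, 11.48, 9.80 and 8.98 TPM, were those of the 3 libraries with the highest coding share of TPM. HP1c did not share this order, since Su(var)3-9 RNAi replicate 3, with 10.46 TPM, lay below HP1a RNAi replicate 3, with 10.95 TPM. Over size factors the coefficient of variation over 9 libraries went from 22.6 to 16.2% for HP1b and from 22.3 to 13.5% for HP1c. That of HP1a in the control went from 25.7 to 12.3%. Within the Su(var)3-9-labelled group it went the other way, from 8.93 to 18.6% for HP1b and from 8.48 to 19.8% for HP1c.

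The genes whose levels most resembled each paralog over the 9 libraries were found by Pearson's r on log2(TPM + 1) less the library median, among 6573 tested genes, and are given as a description. For HP1a they were CG3568 (r = 0.90), aub (0.89), a Piwi protein of the piRNA pathway, and CG13896 (0.89), and the 9 points include the 3 HP1a-labelled libraries, in which HP1a stood apart. For HP1b they were c12.1 (0.96), Vps29 (0.96), a subunit of the retromer complex, and CG16865 (0.96). For HP1c they were Tak1 (0.96), a kinase of immune signalling, ND-20 (0.96), a subunit of respiratory complex I, and CG14079 (0.96). As the highest among 6573 genes on 9 points, such values of r can be high by selection alone. CG3568 (0.91 to 3.23 TPM) and CG14079 (0.53 to 2.85 TPM) were also low in level. Between the paralogs r was 0.33 for HP1b and HP1c, -0.28 for HP1a and HP1b, and -0.02 for HP1a and HP1c.

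Other HP1 family members were low or variable. The germ line paralogs rhi and HP1e and the gene HP6 stayed below 1 TPM in every library and were not tested. Only oxp was tested, at 12.36 to 35.44 TPM in the control, 15.85 to 19.14 TPM in the HP1a-labelled libraries and 12.88 to 44.94 TPM in those labelled Su(var)3-9 RNAi. It passed in none of the 3 comparisons (limma, 0 with an unadjusted p under 0.05). Of all tested genes 4.34% passed between the HP1a-labelled libraries and the control, 0.167% in the Su(var)3-9-labelled libraries and 0.0609% between the dsRNA targets.

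The partners of HP1c had means below that of HP1c in the control, 13.1 ± 3.69 TPM (SD, n = 3). Row averaged 7.36 ± 0.72 TPM, Woc 9.65 ± 1.36 TPM and the ubiquilin Ubqn 11.8 ± 1.50 TPM in the control (SD, n = 3). All 3 were tested and 0 passed in any comparison in limma, with 1 at an unadjusted p under 0.05 between the HP1a-labelled libraries and the control and 0 in the others. Their log2 fold changes in the HP1a-labelled libraries ran from -0.40 (Ubqn) to -0.07 (row) with a median of -0.16, beside -0.27 over all genes, and over size factors from -0.07 to 0.24 with a median of 0.16, beside 0.02. In the Su(var)3-9-labelled libraries they ran from -0.40 (Ubqn) to -0.02 (row) with a median of -0.21, beside -0.23. Among all tested genes 4.34% passed between the HP1a-labelled libraries and the control, 0.167% in the Su(var)3-9-labelled libraries and 0.0609% between the dsRNA targets.

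Of 11 partners of HP1a, 10 were tested and 0 passed in any comparison in limma, with 1 at an unadjusted p under 0.05 between the HP1a-labelled libraries and the control and 0 in the others. The untested one was Hmr, at 0.54 to 1.54 TPM. Their log2 fold changes in the HP1a-labelled libraries ran from -0.43 for XNP, a chromatin remodeller, to -0.05 for Kdm4A, a histone demethylase, with a median of -0.22, beside -0.27 over all genes. Over size factors the median was 0.10, beside 0.02, and the range was -0.12 (XNP) to 0.28 (HP4). In the Su(var)3-9-labelled libraries they ran from -0.52 for CG12109, the large subunit of the chromatin assembly factor, to 0.13 (Kdm4A), with a median of -0.32, beside -0.23. All 10 partners were below HP1a in mean level in every group, the highest in the control being HP4 at 15.6 ± 5.30 TPM (SD, n = 3). Shares of all tested genes that passed were 4.34% (HP1a-labelled against control), 0.167% (Su(var)3-9-labelled against control) and 0.0609% (between the dsRNA targets).

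A list of 4 genes for methylation of lysine 9 of histone H3 held Su(var)3-9, egg, G9a and the egg cofactor wde. Of these, 1 was called lower in the HP1a-labelled libraries against the control. This was wde, at 3.53 to 4.28 TPM in the control and 1.94 to 2.65 TPM in those libraries (log2 fold change -0.59, SE 0.15, limma adjusted p = 0.045), and over size factors it did not pass (-0.32, adjusted p = 0.311). In this comparison 4.34% of all tested genes were called, 14 higher and 271 lower. The median of the list was -0.17, beside -0.27 over all genes, with G9a the highest at -0.10. In the Su(var)3-9-labelled libraries 1 of the 4 was called and it was higher, CG6476 (log2 fold change 3.46, SE 0.37, limma adjusted p = 0.00022). Of all tested genes 0.167% were called in that comparison. There wde was the lowest at -0.83 (limma, unadjusted p = 0.0087, adjusted p = 0.420), and the median was -0.12, beside -0.23. Over size factors wde was -0.63 in that comparison (limma, unadjusted p = 0.0079, adjusted p = 0.309). Its mean was 1.89 TPM in the Su(var)3-9-labelled libraries and 2.26 TPM in the HP1a-labelled ones. The log2 difference of wde between the dsRNA targets was 0.24 (limma, unadjusted p = 0.396). Between the dsRNA targets CG6476 was the only one called (log2 difference -3.67, limma adjusted p = 0.0012), where 0.0609% of all tested genes were. In the HP1a-labelled libraries CG6476 itself stood at 26.18 to 29.28 TPM, within the control range of 23.79 to 36.89 TPM.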

How the data were processed

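Total RNA from S2 cells was sequenced in 9 libraries, 3 per group, and groups were taken from the sample labels. According to the methods, the authors trimmed paired reads with Cutadapt, aligned them to dm3 with STAR and quantified them with RSEM. The authors deposited TPM per gene and per transcript, rounded to 2 decimals. Column sums ran from 999999.4 to 1000000.6, so depth cannot be read from them. The authors also deposited tables of posterior probabilities, mean levels and fold changes for each knockdown, which were not used. Names and gene models came from RefSeq and the BDGP6 annotation, a later build than dm3, so no coordinates are given.

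Values were tested as log2(TPM + 1), which understates changes of low genes, keeping 6573 genes and 7704 transcripts that averaged 1 TPM or more across libraries. The 6 libraries of a comparison were fitted alone in R 4.3.3 by limma 3.58.1 (eBayes with trend, two-sided), and p-values were adjusted by Benjamini-Hochberg over all tested features, with a threshold of 0.05. Shares and log2 ratios were compared with two-sided exact permutation tests (scipy 1.17.1) and adjusted within each family. The fit was tested on simulated data with noise drawn independently for each gene and library. Those data held no shift shared by the genes of a library, so they do not test the fit under such shifts. According to the methods each RNAi experiment behind these libraries was carried out 3 times. The sources do not say how far the repeats were separate in culture or day, so p-values measure the spread between these libraries. The comparisons share control libraries.

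The text names the 3 HP1 genes, their transcripts and overlapping genes, per paralog the 3 genes of highest Pearson's r, and from 4 lists (other HP1 family, HP1c complex, HP1a partners, H3K9 methyltransferases with wde) the genes past the threshold and the lowest and highest fold changes; levels of other list members are added. The HP1a partners were Su(var)3-7, Su(var)2-HP2, HP4, HP5, Lhr, Hmr, ADD1, XNP, HIPP1, Kdm4A and CG12109. Cell type markers were Pxn, vkg, Col4a1, srp, NimC1, Hml, Sr-CI and crq for blood cells, and vas, nos, bam, tj, fs(1)Yb, elav, nSyb, Mhc and Act88F for others. Members and lists were chosen with earlier results of these data known. Alternatives were another pseudocount, filters, scalings, 1 fit of all 9 libraries, a replicate block and leaving out each library.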

Additional observations from a re-analysis of the deposited data

How the results depend on the processing

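Directions and calls of the HP1 genes changed under several settings. In the HP1a-labelled libraries against the control, HP1c was 0.013 under size factors, 0.0153 under quantile normalization and 0.0209 rescaled over protein-coding genes, and HP1b 0.00932 under size factors and 0.018 rescaled, all opposite in sign to the deposited scale. In the Su(var)3-9-labelled libraries against the control, size factors, quantile normalization and rescaling turned HP1b to 0.19, 0.20 and 0.17 and HP1a-RA to 0.23, 0.43 and 0.20, and quantile normalization turned HP1a to 0.16. Without a filter on low values 0 of the 3 HP1 genes passed in each comparison with the HP1a-labelled libraries (1 before in each), and 0 and 1 HP1a transcripts passed (2 before in each). That setting raised the tested genes from 6573 to 11832. With a pseudocount of 1 the HP1c to HP1b difference between the HP1a-labelled libraries and the control was -0.0063.

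Leaving out 1 library gave 1 to 3 called HP1 genes in the HP1a-labelled libraries against the control, 0 to 1 between the dsRNA targets, and 1 to 2 called HP1a transcripts in the first of these. Fold changes against the control in the Su(var)3-9-labelled libraries ran from -0.34 to 0.0941 (HP1b) and -0.26 to 0.22 (HP1a-RA), HP1c between the dsRNA targets from -0.058 to 0.0659, HP1c to HP1a in the Su(var)3-9-labelled libraries from -0.20 to 0.13, and HP1c to HP1b in those labelled HP1a RNAi from -0.21 to 0.12. Against the 6 other libraries, the HP1a-RA share difference ran from -73.0 to -65.9 points, HP1b to HP1a from -2.75 to -2.49 and HP1c to HP1a from -2.59 to -2.38. With 2 libraries labelled HP1a RNAi the smallest exact permutation p is 0.0714.

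Same-numbered libraries did not deviate together (r between -0.45 and 0.12 over genes), so the main fits did not pair libraries by number. These correlations cannot show whether libraries of the same number were prepared together, which the sources do not say. With a replicate block, 0 HP1 genes passed between the dsRNA targets (HP1a limma adjusted p = 0.088), and 605 genes in place of 285 were called between the HP1a-labelled libraries and the control. Over the other settings and left-out libraries, 285 called genes became 26 (no filter on low values) to 2767 (without control replicate 2), 11 in the Su(var)3-9-labelled libraries became 3 to 724, and 4 between the dsRNA targets became 1 to 29, where rescaling gave 5 higher and 5 lower in place of 3 and 1. Called transcripts went from 25 to between 6 and 1056, from 6 to between 2 and 17, and from 5 to between 3 and 27. The causes were not tested. Depth is not given by TPM, so the counting error of HP1b and HP1c is unknown here.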
